A study of Mus musculus with 2 samples.

Results

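Adventitial fibroblast spots are the places in a heart section where transcripts of 5 adventitial fibroblast markers took the largest share of the RNA. They were taken outside a class of spots left out as scar for its share of matrix transcripts. Spot positions were not used, so how far the adventitial spots lie from the scar was not tested. The spots were chosen by measured values, so the markers and the scar matrix genes describe the choice and are no finding. In each section, spots with at least 500 UMIs (unique molecular identifiers, 1 per captured transcript) were kept, and the fifth of them with the largest UMI share of Col1a1, Col1a2, Col3a1, Postn, Fn1, Cthrc1, Tnc and Lox was left out as scar. Of the retained spots, the 50 with the largest share of Pi16, Clec3b, Cd248, Mfap5 and Tnxb were taken, which gave 100 of 1662 kept spots over both sections. The remaining 599 retained spots of one section and 631 of the other are called other retained spots below.

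Visium was used on frozen transverse heart sections of C57BL/6 mice, an assay in which each array spot captures RNA from a small region with several cells. The left anterior descending artery of both mice had been ligated on postnatal day 2, and the hearts were taken 7 days later. There was 1 section of a PD1 Het heart (PD1 +/-) and 1 of a PD1 KO heart (PD1 -/-), and no uninjured or PD1 wild-type heart is part of the comparison. With 1 section per genotype there is no replicate, so no test was made, spots were not counted as replicates, and every interval covers counting error only.

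Adventitial fibroblasts sit in the loose connective tissue around larger vessels and under other tissue borders. They are known for the peptidase inhibitor Pi16 and for a matrix that carries tension around the vessel wall, and they are regarded as a reserve from which other fibroblasts can arise. In an injured heart, activated fibroblasts fill the wound with fibrillar collagen, and that state is distinct from the adventitial one.

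The 50 adventitial spots of the PD1 Het section held 714227 UMIs and those of the PD1 KO section 1462995. UMIs per adventitial spot ranged from 9601 to 23503 in PD1 Het, with a median of 13647.5, and from 15281 to 49006 in PD1 KO, with a median of 27580.5. A gene with no UMI here may have had up to 3, which is 4.20 and 2.05 CPM (counts scaled to a total of 1000000 UMIs). Mitochondrial transcripts took 19.8% of the UMIs of adventitial spots and 27.5% of those of other retained spots in PD1 Het, and 12.4% and 16.9% in PD1 KO. Ratios computed without mitochondrial genes are given with the adventitial list below. The files share 225 barcodes, which name array positions and not cells.

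The marker share that chose the spots formed a slope with no step at the boundary. The highest-ranked spot held markers at 2015 CPM in PD1 Het and 1598 CPM in PD1 KO. The last spot taken held 955.3 CPM in PD1 Het and the first one not taken 954.8. In PD1 KO these values were 680.5 and 679.7. A spot of the class held between 11 and 29 marker UMIs in PD1 Het (median 16) and between 12 and 70 in PD1 KO (median 26). Ranks near the boundary therefore turned on single UMIs. The left-out scar spots were not poor in these markers: their median was 786 CPM in PD1 Het and 453 CPM in PD1 KO, against 332 and 275 in other retained spots, and their highest spot reached 4491 and 3712. The class called scar is set by matrix share alone. It also held more atrial cardiomyocyte markers than other retained spots, at 1197 against 220 CPM in PD1 Het and 9328 against 717 CPM in PD1 KO. Valve, tendon and cartilage genes were at 57.2 against 14.1 CPM in PD1 Het and 116 against 23.6 CPM in PD1 KO. Whether all its spots lie in the infarct scar was not tested.

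**Figure D1:**
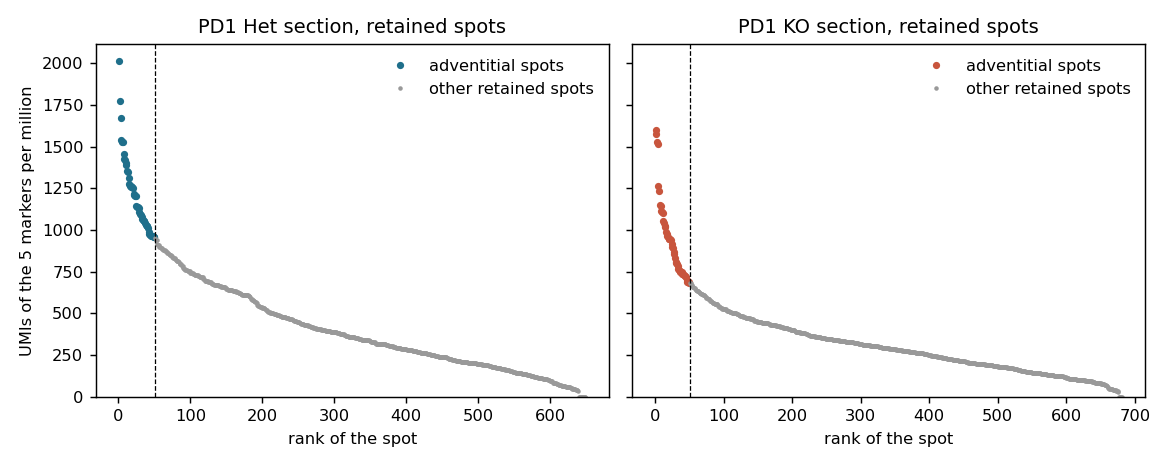
Summed level of the 5 markers in CPM (y axis) for every retained spot, ordered by that share (x axis), for PD1 Het (left) and PD1 KO (right). Coloured points are the 50 adventitial spots, grey points the other retained spots, and the dashed line is the boundary, at 955.3 against 954.8 in PD1 Het and 680.5 against 679.7 in PD1 KO.

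The spots were chosen for the sum of the 5 markers, and the make-up of that sum is given as a description. All 5 were present in 34 of the 50 PD1 Het spots and 42 of the 50 PD1 KO spots, and 15 and 8 further spots held 4 of them. Mfap5, a microfibril-associated protein of elastic fibres, alone had the most marker UMIs in 20 spots of PD1 Het and 35 of PD1 KO. Pi16 alone led in 13 and 9 spots. The leading marker gave a median of 38.8% of a spot's marker UMIs in PD1 Het and 38.6% in PD1 KO.

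Summed over spots, Pi16 stood at 329 CPM in adventitial spots and 70.9 CPM in other retained spots of PD1 Het, and at 219 and 51.9 CPM in PD1 KO. Mfap5 stood at 395 and 105 CPM in PD1 Het, and at 329 and 109 CPM in PD1 KO. Clec3b, which encodes the plasminogen-binding protein tetranectin, stood at 139 and 43.5 CPM, and at 132 and 26.8 CPM. Of the 5, Clec3b had the lowest level in the other retained spots of PD1 KO. Cd248, the stromal surface glycoprotein endosialin, stood at 134 and 43.1 CPM, and at 106 and 33.6 CPM. Tnxb, the matrix protein tenascin-X, stood at 214 and 97.6 CPM, and at 152 and 66.5 CPM. The scar spots of PD1 Het held more Tnxb, at 242 CPM, than its adventitial spots, while Pi16, Clec3b, Cd248 and Mfap5 were higher in adventitial than in scar spots of both sections.

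To see each marker in spots that it did not choose, the spots were ranked again by the other 4 markers, and the marker left out was read in the 50 spots that resulted. All log2 ratios from here on are relative to the median gene of their comparison. Its own CPM was 1.13 times as high in adventitial as in other retained spots of PD1 Het and 1.08 times in PD1 KO, so for this comparison a log2 ratio of CPM itself is 0.18 higher in PD1 Het and 0.12 higher in PD1 KO than the value given. Pi16 was then at 247 CPM in the chosen spots and 77.2 CPM in the rest of PD1 Het (log2 ratio 1.5, 95% interval 1.25 to 1.74), and at 188 and 54.8 CPM in PD1 KO (1.67, 1.47 to 1.87). The lowest ratio of the 5 was that of Tnxb, 0.64 (0.36 to 0.91) in PD1 Het and 0.90 (0.68 to 1.12) in PD1 KO. Cd248 had 1.02 and 1.33, Mfap5 1.37 and 1.26, and Clec3b, the most unequal, 1.0 and 1.94. All 10 intervals lay above 0. Between 37 and 46 of the 50 spots were the same as in the full ranking.

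The label was also read in 28 adventitial fibroblast genes that did not choose the spots. Their sum was 1602 CPM in adventitial spots and 1049 CPM in other retained spots of PD1 Het, a log2 ratio of 0.43 (0.34 to 0.52). In PD1 KO it was 1710 and 1149 CPM, a log2 ratio of 0.46 (0.40 to 0.52). Scar spots held nearly the same amount of this list as adventitial spots, at 1569 CPM in PD1 Het and 1737 CPM in PD1 KO, so the list separates the class from the other retained spots and not from the scar. With mitochondrial genes left out of the total the log2 ratios to other retained spots were 0.46 and 0.50, and with spots ranked by a share without those genes 0.45 and 0.47. The sum was above the 90th percentile of other retained spots in 27 of 50 PD1 Het spots and 31 of 50 PD1 KO spots. Single adventitial spots ranged from 831 to 3099 CPM in PD1 Het and from 929 to 2566 CPM in PD1 KO, with medians of 1592 and 1670 CPM. Single spots of the class therefore overlapped with the rest.

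Of the members of this list with at least 200 UMIs in the retained spots, 10 of 11 lay above the median gene in PD1 Het and 14 of 16 in PD1 KO, with medians of 0.27 and 0.43. At least 1.5-fold above it were 4 of 11 and 5 of 16 members, where 2.75% of 5203 genes in PD1 Het and 2.15% of 8497 genes in PD1 KO reached that fold. The list names surface proteins, enzymes and secreted factors. Among the surface proteins, Cd34, a sialomucin of stromal and endothelial cells, was at 428 and 252 CPM in adventitial and other retained spots of PD1 Het (0.59, 0.41 to 0.76), and at 427 and 285 CPM in PD1 KO (0.47, 0.35 to 0.59). Ly6c1, which capillary endothelium also carries, was at 223 and 164 CPM in PD1 Het (0.27, 0.02 to 0.50) and at 189 and 175 CPM in PD1 KO (-0.01, -0.19 to 0.17). Neither gene is particular to fibroblasts. Both made up a large part of the list's sum in adventitial spots, 1602 CPM in PD1 Het and 1710 CPM in PD1 KO.

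Scara5, a scavenger receptor that takes up ferritin, had fewer than 200 UMIs. It stood at 22.4 CPM in adventitial, 8.23 CPM in other retained and 11.5 CPM in scar spots of PD1 Het (log2 ratio to other retained spots 1.27, 0.39 to 2.05), and at 32.8, 6.25 and 9.14 CPM in PD1 KO (2.28, 1.76 to 2.77). Efhd1, a calcium-binding protein of mitochondria, stood at 14.0, 3.45 and 2.22 CPM in PD1 Het (1.84, 0.66 to 2.89), and at 11.6, 2.74 and 1.83 CPM in PD1 KO (1.97, 1.08 to 2.79). These 2 members were higher in adventitial than in scar spots of either section, while others were lower: Col14a1, a collagen that associates with fibrils, was at 85.4 against 273 CPM in scar spots of PD1 Het and 145 against 338 CPM in PD1 KO. Gfpt2, an enzyme of the hexosamine pathway, and Adgrd1, an adhesion receptor, were chosen after their values were seen, with log2 ratios of 1.39 and 1.61 in PD1 Het and 1.97 and 1.47 in PD1 KO. Dpp4, a peptidase often used with Pi16 to sort such cells, gave 3 and 12 UMIs in adventitial spots. With spots drawn down to 10000 UMIs, it was in 4.08% of adventitial, 2.93% of other retained and 9.23% of scar spots of PD1 Het. In PD1 KO it was in 6%, 3.18% and 8.07%. The exact binomial intervals of the adventitial shares (0.50 to 14.0% and 1.25 to 16.5%) held the shares of both other classes, so it could not be placed. Efhd1 and Adgrd1 were also sparse, with a UMI in 9 and 8 of the 50 adventitial spots of PD1 Het.

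Over all 5200 genes with at least 200 UMIs in the retained spots of both sections, 37 (0.712%) were at least 1.5-fold above the median gene in adventitial spots of both, and 12 (0.231%) at least 1.5-fold below it. By CPM ratios that are not relative to the median gene these counts were 58 and 7, with edgeR's TMM factors 30 and 18, and with median-of-ratios size factors 31 and 17. In single sections, 143 of 5203 genes (2.75%) were above and 180 (3.46%) below in PD1 Het, and 183 of 8497 (2.15%) above and 200 (2.35%) below in PD1 KO. The median tested gene had only 34 UMIs in the adventitial spots of PD1 Het and 50 in those of PD1 KO, so a 1.5-fold difference in 1 section is close to counting error. The 37 included the 5 markers of the rule. Of the 37, 9 were in the fibroblast, matrix or elastic fibre lists and 22 in no list. The lists of other adventitial, elastic fibre, proteoglycan, general fibroblast and activated fibroblast genes held 11, 14, 7, 13 and 4 of the 5200 genes. Of these members, 2, 2, 2, 2 and 1 were among the 37. All 33 lists matched only 323 genes, so most tested genes are in no list.

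**Figure D2:**
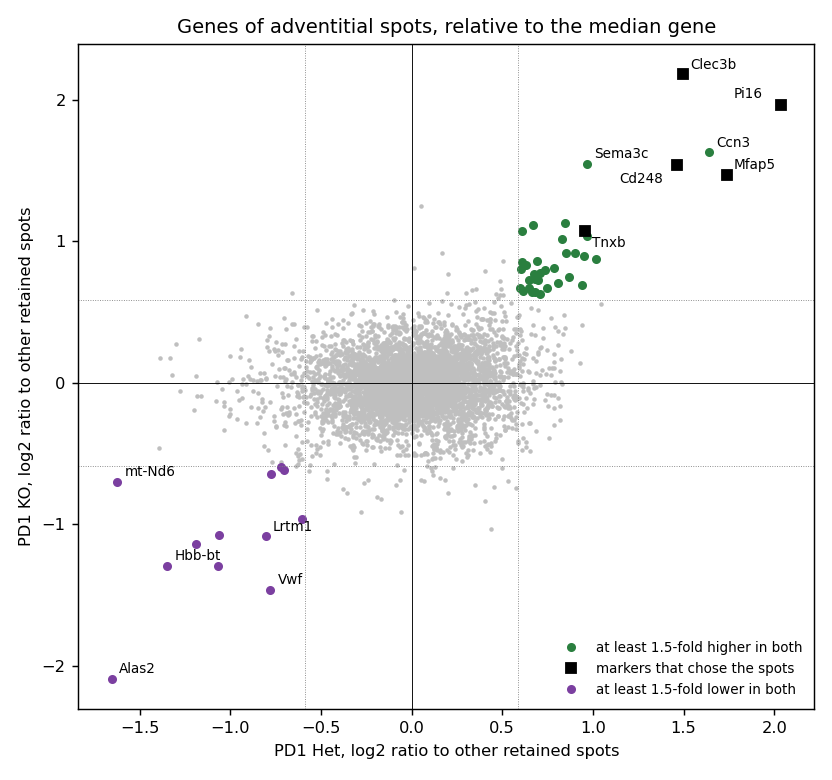
Log2 ratio of adventitial to other retained spots, relative to the median gene, in PD1 Het (x axis) and PD1 KO (y axis), for genes with at least 200 UMIs in the retained spots of both sections. Dotted lines mark 1.5-fold; squares are the 5 markers that chose the spots, green points the other genes past it upward in both sections and purple points the 12 genes past it downward. Ccn3, at 1.64 and 1.63, lies among the markers although it chose no spot.

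Ccn3, a secreted matricellular protein of the CCN family (chromosome 15, 54745702 to 54754039, plus strand, mm10), came closest to the markers. It gave 47 UMIs in adventitial spots of PD1 Het, or 65.8 CPM, against 18.7 CPM in other retained and 28.4 CPM in scar spots. In PD1 KO it gave 120 UMIs, or 82.0 CPM, against 24.5 and 25.1 CPM. The log2 ratios to other retained spots were 1.64 (1.14 to 2.11) and 1.63 (1.33 to 1.92), and their difference of -0.01 (-0.56 to 0.54) was within counting error. With every spot thinned to 10000 UMIs, Ccn3 was found in 22 of 49 adventitial spots of PD1 Het (44.9%, exact binomial interval 30.7 to 59.8%) and 97 of 580 other retained spots (16.7%). In PD1 KO it was found in 26 of 50 (52.0%, 37.4 to 66.3%) and in 127 of 628 (20.2%). Thinning left out 1 adventitial and 19 other retained spots of PD1 Het, and 3 other retained spots of PD1 KO; without thinning the shares were 60.0% and 22.4% in PD1 Het, and 72.0% and 42.6% in PD1 KO.

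Sema3c, a secreted guidance cue of the semaphorin family and a member of the adventitial list (chromosome 5, 17574281 to 17730268, plus strand, mm10), followed. It stood at 53.2 CPM in adventitial, 24.1 CPM in other retained and 51.9 CPM in scar spots of PD1 Het (0.97, 0.43 to 1.47), and at 77.2, 24.4 and 40.2 CPM in PD1 KO (1.55, 1.24 to 1.85). After thinning it was in 44.9% of adventitial and 19.3% of other retained spots of PD1 Het, and in 56.0% and 19.9% of PD1 KO. Ntn1, the guidance cue netrin-1, was at 78.4 and 43.5 CPM in adventitial and other retained spots of PD1 Het (0.67, 0.25 to 1.08) and at 95.7 and 51.7 CPM in PD1 KO (0.77, 0.51 to 1.03). Its scar spots held 78.5 and 71.6 CPM. Both guidance cues were thus higher in adventitial than in other retained spots of each section, but in PD1 Het both were close to their level in scar spots.

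The 37 genes included secreted enzymes, which were grouped here after their values were seen. Pcsk6, a proprotein convertase, was at 176 CPM in adventitial, 79.9 CPM in other retained and 127 CPM in scar spots of PD1 Het (0.96, 0.68 to 1.24), and at 181, 81.5 and 126 CPM in PD1 KO (1.04, 0.84 to 1.23). Htra3, a secreted serine protease of the general fibroblast list, had log2 ratios of 0.85 (0.58 to 1.11) and 0.92 (0.74 to 1.09). Sulf1, which removes sulfate groups from heparan sulfate, had 0.81 (0.30 to 1.28) and 0.71 (0.39 to 1.01). Bmp1 had 0.65 (0.35 to 0.93) and 0.67 (0.47 to 0.87). Loxl2, from the list of activated fibroblast genes, had 0.60 (-0.03 to 1.18) and 0.81 (0.49 to 1.11). Unlike Pcsk6, Htra3 and Sulf1 were higher in scar spots, at 280 against 192 CPM for Htra3 and 71.4 against 58.8 CPM for Sulf1 in PD1 Het.

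Nbl1 and Fstl1, also among the 37 and picked in the same way, encode secreted glycoproteins. Nbl1, which binds BMPs, had log2 ratios of 0.85 (0.22 to 1.42) in PD1 Het and 1.13 (0.66 to 1.58) in PD1 KO. Fstl1, a follistatin-like glycoprotein, was at 321 and 148 CPM in adventitial and other retained spots of PD1 Het (0.94, 0.73 to 1.14) and at 496 and 283 CPM in PD1 KO (0.69, 0.58 to 0.80). Its level was highest in scar spots, at 485 and 894 CPM. The fixed list of 18 secreted regulators of Wnt, BMP and IGF signalling, which holds neither gene, had a summed log2 ratio of 0.09 (-0.04 to 0.22) in PD1 Het and -0.00 (-0.09 to 0.08) in PD1 KO. Of its tested members, 0 of 6 and 1 of 9 passed 1.5-fold upward, against 2.75% and 2.15% of all genes tested.

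Matrix genes of the elastic fibre and of the collagen surface were higher in adventitial than in other retained spots, at levels below those of the spots left out as scar. The sum of 16 elastic fibre genes was 2454 CPM in adventitial, 1680 CPM in other retained and 6988 CPM in scar spots of PD1 Het (0.37, 0.30 to 0.44), and 3012, 2112 and 6198 CPM in PD1 KO (0.40, 0.35 to 0.44). Of the members tested, 2 of 14 passed 1.5-fold upward in PD1 Het and 5 of 15 in PD1 KO, against 2.75% and 2.15% of all genes tested, with medians of 0.29 and 0.40. Fbn1, the fibrillin of microfibrils, was at 405 and 208 CPM in PD1 Het (0.78, 0.60 to 0.96) and at 444 and 233 CPM in PD1 KO (0.81, 0.69 to 0.93). Eln, which encodes elastin itself, differed less: its log2 ratios were 0.42 (0.26 to 0.57) and 0.34 (0.25 to 0.43), and scar spots held 3149 and 2214 CPM against 539 and 712 CPM in adventitial spots.

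Small leucine-rich proteoglycans and dermatopontin, which bind collagen fibrils and set their spacing, summed to 1791 and 1194 CPM in adventitial and other retained spots of PD1 Het (0.41, 0.32 to 0.49), and to 2253 and 1388 CPM in PD1 KO (0.58, 0.53 to 0.64). All 7 tested members lay above the median gene in both sections, and 2 passed 1.5-fold upward in PD1 Het and 4 in PD1 KO, against 2.75% and 2.15% of all genes. Dcn, decorin, had log2 ratios of 0.41 (0.25 to 0.55) and 0.79 (0.70 to 0.88). Prelp, which anchors basement membranes to connective tissue, had 0.67 (0.09 to 1.21) and 1.12 (0.78 to 1.44). The sum of 16 general fibroblast genes was at 0.36 (0.29 to 0.42) and 0.35 (0.31 to 0.39), led by Gsn, the actin-severing protein gelsolin. Gsn stood at 505, 239 and 597 CPM in adventitial, other retained and scar spots of PD1 Het, and at 506, 246 and 518 CPM in PD1 KO. A higher sum in a spot may come from more fibroblasts or from more RNA per fibroblast, and the 2 cannot be told apart here.

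Genes of activated fibroblasts were nearer to the rest of the tissue. The sum of 16 such genes outside the rule had log2 ratios of 0.22 (0.14 to 0.31) in PD1 Het and 0.10 (0.04 to 0.16) in PD1 KO, and 1 of 4 and 2 of 13 tested members passed 1.5-fold upward (all genes 2.75% and 2.15%) while 0 and 4 passed it downward (all genes 3.46% and 2.35%). Sparc, a collagen-binding glycoprotein that made up most of the sum, had 0.21 (0.12 to 0.30) and 0.10 (0.04 to 0.16). Col11a1, a collagen of dense new matrix, had 0 UMIs in the adventitial spots of both sections, against 19.5 and 73.4 CPM in scar spots. Thbs4, a thrombospondin of tendon and scar, was at 5.6 against 45.2 CPM in PD1 Het and 6.15 against 202 CPM in PD1 KO. The rule had already left out the spots with most fibrillar collagen, and its part in these low levels was not tested.

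**Figure D3:**
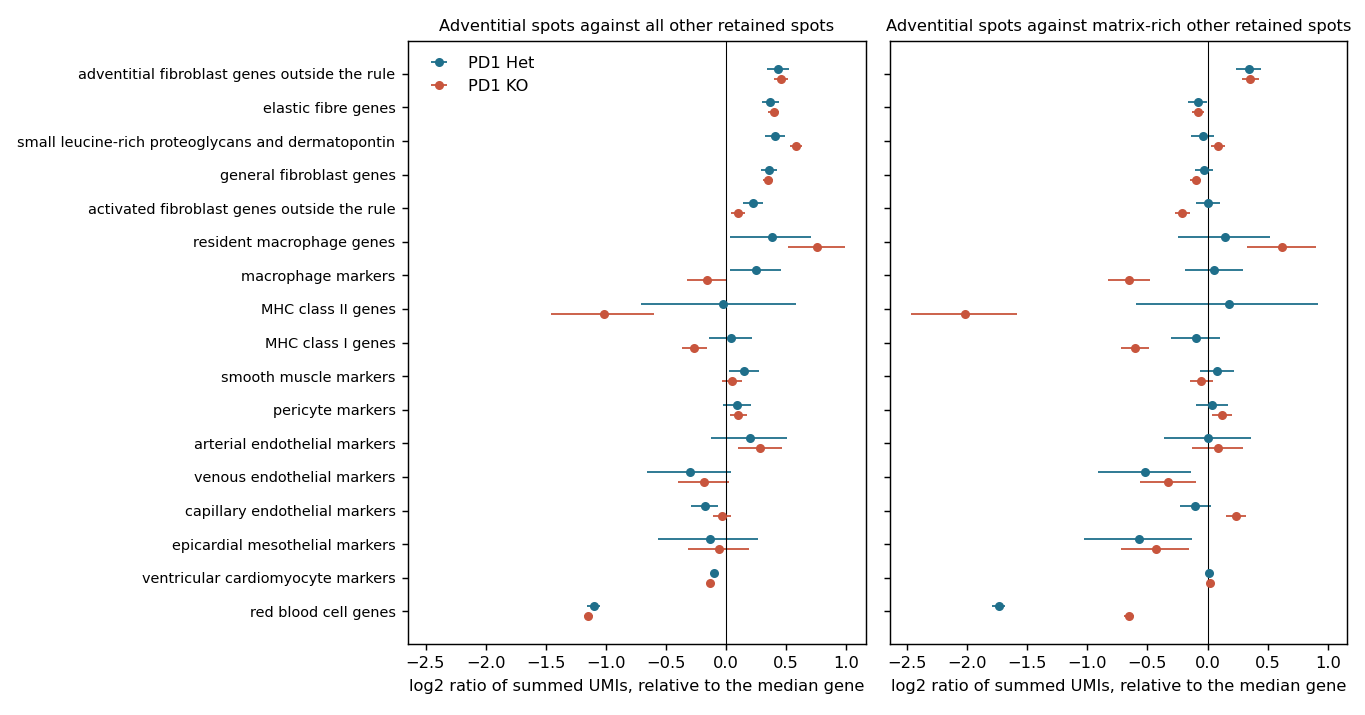
Log2 ratio of the summed UMIs of gene lists in adventitial spots, relative to the median gene, against all other retained spots (left) and against the matrix-rich ones among them (right). Points are the PD1 Het (blue) and PD1 KO (red) sections and bars are 95% intervals for counting error; the adventitial list outside the rule stays above 0 on both sides (0.34 and 0.35 on the right), and the general fibroblast list does not (-0.03 and -0.10).

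Adventitial spots held more fibrillar collagen than the average retained spot, so they were also set against the matrix-rich part of the other retained spots, a comparison chosen after seeing the data. The scar matrix genes took a median of 0.391% of the UMIs in adventitial spots and 0.293% in other retained spots of PD1 Het, and 0.555% and 0.388% in PD1 KO. Matrix-rich other retained spots were those at or above the adventitial median, 123 in PD1 Het and 129 in PD1 KO, with medians of 0.453% and 0.671%. By this choice they hold more scar matrix than the adventitial spots. They also held more atrial cardiomyocyte markers, at 397 against 204 CPM in PD1 Het and 2295 against 619 CPM in PD1 KO. Red blood cell genes were at 12289 against 4048 CPM in PD1 Het and 6593 against 4278 CPM in PD1 KO. The part of these differences in the ratios that follow was not tested. Against matrix-rich spots the adventitial list outside the rule had log2 ratios of 0.34 (0.24 to 0.44) and 0.35 (0.28 to 0.42). The elastic fibre list was at -0.08 in both sections, the proteoglycan list at -0.04 and 0.09, and the general fibroblast list at -0.03 and -0.10.

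Single genes differed within these lists. Against matrix-rich spots Ccn3 had log2 ratios of 1.64 and 1.88, Sema3c 0.93 and 1.30, and Pcsk6 0.73 and 0.83. Of the elastic fibre and general fibroblast lists, Eln had -0.33 and -0.42, while Fbn1 had 0.47 and 0.56 and Gsn 0.64 and 0.48. In these comparisons the median gene's own log2 ratio of CPM was 0.14 in PD1 Het and 0.03 in PD1 KO. Of the 37 genes, 10 were at least 1.5-fold above the median gene against matrix-rich spots in both sections: Pi16, Clec3b, Cd248, Mfap5, Ccn3, Sema3c, Pcsk6, Itih5, S100a6 and Cdc42ep2. Matrix-rich spots are part of the spots against which the 37 were chosen, so this count is a description. A higher CPM in adventitial than in scar spots of both sections was found for 12 of the 37, of which 8 are outside the rule: Ccn3, Sema3c, Pcsk6, Cdc42ep2, Ppp1r18, Phlda1, Thy1 and Glipr2. These genes are named as the members of their counts, some after their values were seen. The share of all tested genes with a higher CPM in adventitial than in scar spots is not given here. The counts of 12 and 8 are therefore a description too.

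Along the marker ranking the other adventitial genes declined without a step. In the PD1 Het section the sum of the adventitial list was 1731 CPM in ranks 1 to 25 and 1472 CPM in ranks 26 to 50. It was 1428 CPM in the next 50 spots, 1260 CPM in the 100 after them, 1072 CPM in the 200 that followed and 898 CPM in the last 249. In PD1 KO the same 6 values were 1769, 1653, 1453, 1288, 1167 and 1032 CPM. The class is thus the top of a gradient, and its size of 50 spots is a choice. The gradient was not particular to this list. Between the first and last bin the proteoglycan list ran from 1840 to 1008 CPM in PD1 Het and from 2415 to 1190 CPM in PD1 KO. General fibroblast genes ran from 2702 to 1745 CPM and from 3599 to 2323 CPM. Ccn3 declined more steeply, from 81.1 to 8.32 CPM between the first and last bin of PD1 Het and from 108 to 15.4 CPM in PD1 KO. Ventricular cardiomyocyte markers ran from 89174 to 80879 CPM in PD1 Het and from 83256 to 83327 CPM in PD1 KO.

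**Figure D4:**
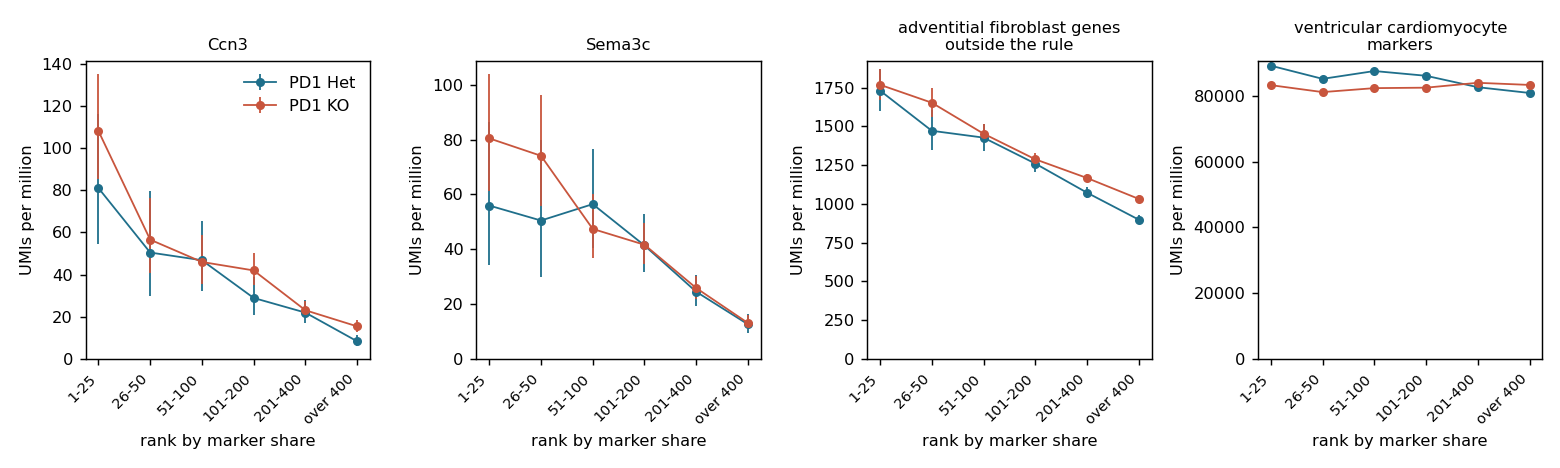
CPM (y axes, from 0) in 6 bins of retained spots ordered by marker share (x axes) for Ccn3, Sema3c, the adventitial list outside the rule and ventricular cardiomyocyte markers, in PD1 Het (blue) and PD1 KO (red); bars are 95% intervals for counting error. The adventitial list runs from 1731 to 898 CPM in PD1 Het and from 1769 to 1032 CPM in PD1 KO with no step after rank 50.

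Other cell types were present in the adventitial spots. The 12 ventricular cardiomyocyte markers took 8.72% of their UMIs in PD1 Het and 8.22% in PD1 KO. All 12 were below the median gene in both sections, with summed log2 ratios of -0.10 and -0.14, although their CPM was higher in adventitial than in other retained spots of PD1 Het (87175 against 82741). Smooth muscle markers had summed log2 ratios of 0.15 (0.03 to 0.27) and 0.05 (-0.03 to 0.14), and exceeded the 90th percentile of other retained spots in 10 and 6 of 50 spots. In both sections the highest spot stood far above the middle of the class, at 4167 CPM against a median of 707 CPM in PD1 Het and 3321 against 738 CPM in PD1 KO. Pericyte markers were at 0.09 (-0.02 to 0.21) and 0.10 (0.03 to 0.18), and arterial endothelial markers at 0.20 (-0.13 to 0.51) and 0.29 (0.10 to 0.47). Venous markers were at -0.30 (-0.66 to 0.04) and -0.19 (-0.40 to 0.02), and capillary markers at -0.18 (-0.29 to -0.06) and -0.03 (-0.10 to 0.04).

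Vwf, the von Willebrand factor of larger-vessel endothelium and endocardium, was among the 12 genes lower in both sections, at 18.2 against 27.6 CPM in PD1 Het (-0.78, -1.71 to 0.02) and 12.3 against 31.3 CPM in PD1 KO (-1.46, -2.23 to -0.79). The epicardial list had summed log2 ratios of -0.14 (-0.56 to 0.26) and -0.06 (-0.32 to 0.19). Its marker Upk3b had 0 UMIs in adventitial spots of PD1 Het and 1 in those of PD1 KO, and after thinning it was found in 0 of 49 and 0 of 50, against 2.59% and 4.30% of other retained spots. Exact binomial intervals for those zeros reach 7.25% and 7.11%, and with so few spots no difference from the rest could be shown. Adipocyte markers had 0 UMIs in the adventitial spots of both sections, T cell markers 4 and 6, and lung epithelial markers 0 and 3.

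Red blood cell genes were lower, and this was the largest difference among the lists outside the rule with over 100 UMIs in adventitial spots. Their 5 genes summed to 4048 CPM in adventitial and 7674 CPM in other retained spots of PD1 Het (-1.10, -1.15 to -1.05), and to 4278 and 8740 CPM in PD1 KO (-1.15, -1.18 to -1.11). Only 1 PD1 Het spot and no PD1 KO spot of the class lay above the 90th percentile of the others. Hbb-bs, an adult beta globin whose reads can be split with its near-identical copy Hbb-bt, was at 2368 against 4373 CPM in PD1 Het and 2388 against 4646 CPM in PD1 KO. Of the 12 genes lower in both sections, 5 were red blood cell genes and 4 mitochondrial, the remaining 3 being Vwf, Lrtm1 and Fnip1. Whether blood content had a part in the fibroblast ratios was not tested.

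Against other retained spots, the sum of resident macrophage genes was higher in both sections and that of general macrophage markers in PD1 Het. Resident macrophage genes summed to 116 and 79.0 CPM in adventitial and other retained spots of PD1 Het (0.38, 0.03 to 0.71), and to 115 and 62.8 CPM in PD1 KO (0.76, 0.51 to 0.99). Pf4, a chemokine of platelets that resident macrophages also express, gave 45 of 83 and 78 of 168 of these UMIs, and Lyve1, which marks perivascular macrophages, gave 0 in both sections. Scar spots held 150 and 95.6 CPM of the resident macrophage list. Against matrix-rich other retained spots its log2 ratios were 0.14 (-0.25 to 0.52) in PD1 Het and 0.62 (0.33 to 0.91) in PD1 KO. General macrophage markers were at 284 and 212 CPM in PD1 Het (0.25, 0.03 to 0.46) but at 236 and 243 CPM in PD1 KO (-0.16, -0.32 to -0.00). MHC class II genes, which present antigen, were at 32.2 and 29.1 CPM in PD1 Het (-0.03, -0.71 to 0.59), and at 33.5 and 62.4 CPM in PD1 KO (-1.01, -1.46 to -0.60). Between the sections the adventitial level differed by less than counting error (log2 ratio of PD1 KO over PD1 Het -0.17, -0.91 to 0.62), while that of other retained spots was higher in PD1 KO (0.79). C3, the central complement component, gave 5 UMIs in adventitial spots of PD1 Het (7.00 against 13.2 CPM) and 15 in PD1 KO (10.3 against 38.8 CPM, -2.04, -2.88 to -1.31).

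The last comparison is between adventitial spots of the 2 sections. It sets 1 PD1 KO heart against 1 PD1 Het heart, whose section, depth and sex cannot be told apart from the genotype: Xist, the RNA of the inactive X chromosome, gave 35 UMIs in PD1 Het and 0 in PD1 KO adventitial spots, and the Y-linked Ddx3y and Eif2s3y gave 0 and 0 in PD1 Het and 64 and 97 in PD1 KO. Pdcd1, the gene of PD-1, gave 0 UMIs in adventitial spots of both, so the genotype could not be read from them. Atrial cardiomyocyte markers were at 204 CPM in PD1 Het and 619 CPM in PD1 KO adventitial spots, and at 1197 and 9328 CPM in scar spots. Relative to the median gene, which was 1.17 times as high in PD1 KO in adventitial spots and 1.24 times in other retained spots, their log2 ratio was 1.37 (1.12 to 1.64) in adventitial and 1.39 in other retained spots. The part of this difference in the ratios below was not tested. Of 5611 genes with at least 50 UMIs in the adventitial spots of both sections together, 583 (10.4%) were at least 1.5-fold higher in PD1 KO and 405 (7.22%) at least 1.5-fold lower. By CPM ratios not relative to the median gene, 1162 were higher and 127 lower, and with a total that leaves out mitochondrial genes 782 and 254.

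The markers chose the spots of both sections, so their values between sections are a description and support no difference. Of the 5, 2 were at least 1.5-fold lower in PD1 KO adventitial spots, against 7.22% of all genes tested. The sum of the 5 had a log2 ratio of -0.59 (-0.72 to -0.47) in adventitial and -0.63 in other retained spots. Pi16 was at -0.81 (-1.06 to -0.56) and -0.76, Tnxb at -0.72 (-1.02 to -0.41) and -0.86, and Cd248 at -0.57 (-0.94 to -0.18) and -0.67. Mfap5 was at -0.49 (-0.70 to -0.27) and -0.25, and Clec3b at -0.29 (-0.65 to 0.07) and -1.01. The adventitial list outside the rule was at -0.13 (-0.23 to -0.03) and -0.18. The fixed number of 50 spots per section, and not the number of adventitial cells, sets which spots enter here.

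Of the 5611 genes tested between the sections, only 16 were in the adventitial list outside the rule and 5 were markers. None of these was among the 10 genes named as highest and the 10 named as lowest in PD1 KO. With so small a share this is no result about the adventitial genes. Pdk4, which restrains glucose oxidation, gave 36.4 CPM in PD1 Het and 206 CPM in PD1 KO adventitial spots (2.28, 1.70 to 2.91), and 2.24 in other retained spots. Angptl4, an inhibitor of lipoprotein lipase, gave 33.6 and 168 CPM (2.10, 1.49 to 2.77), and 1.73 in other retained spots. At the other end, Polr2l, a small subunit of RNA polymerases, gave 132 and 43.7 CPM (-1.81, -2.29 to -1.34), and -1.35 in other retained spots. Eno1, a glycolytic enolase with a near-identical copy that makes its count uncertain, gave 130 and 64.3 CPM (-1.24, -1.67 to -0.81), and -1.20. For these 4 the ratio of other retained spots lay within the interval of the adventitial one. Over all 10 lowest genes the median ratio was -1.26 in adventitial and -0.59 in other retained spots, and the first of these values chose them.

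The other 8 of the 10 genes highest in PD1 KO rested on 6 to 11 UMIs in the adventitial spots of PD1 Het, and were Nutf2-ps1, Kmt2e, Luc7l, Tnk2, Ginm1, Nr4a1, Xpo6 and Birc5. The median ratio of the 10 was 1.94 in adventitial and 0.57 in other retained spots, and the first of these values chose them. Nutf2-ps1 is a pseudogene that can share reads with its parent gene. Of the cell cycle list, 7 of 11 tested members were at least 1.5-fold higher in PD1 KO and 0 lower, against 10.4% and 7.22% of all genes, and its sum was at 0.61 (0.40 to 0.82) in adventitial and 0.37 in other retained spots. Birc5, the mitotic protein survivin, gave 11 and 85 UMIs (1.69, 0.78 to 2.75), and Mki67, the proliferation marker, 41 and 92 UMIs (-0.09, -0.64 to 0.48). Immediate early genes were at 0.68 (0.43 to 0.94) and 0.70, with 3 of 5 tested members higher, against 10.4% of all genes.

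**Figure D5:**
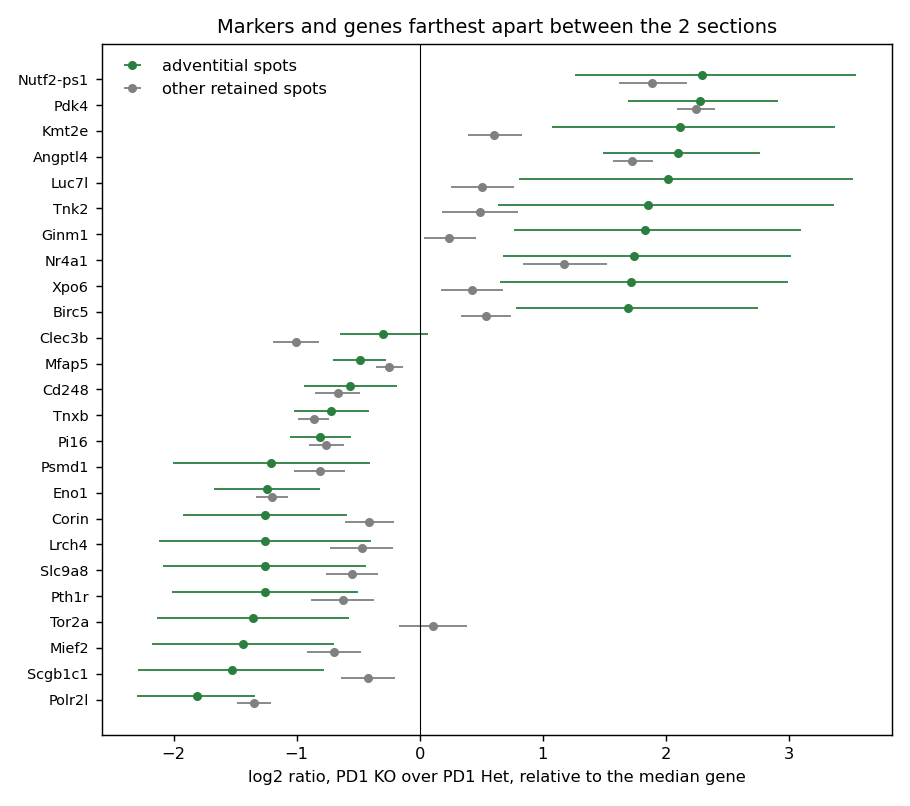
Log2 ratio of PD1 KO over PD1 Het, relative to the median gene, in adventitial spots (green) and other retained spots (grey) for the 5 markers and for the 10 highest and 10 lowest genes by the ratio in adventitial spots; bars are 95% intervals for counting error in 1 section each. Pdk4 is about as far apart in both kinds of spot (2.28 and 2.24), while Kmt2e is at 2.12 in adventitial and 0.61 in other retained spots.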

How the data were processed

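The deposited files hold raw UMI counts for each gene in each spot. Per the file headers, the authors made them with Space Ranger 1.1.0. The submitters' processing notes name the builds mm10 and GRCm38; which annotation was used is not given in the sources used here. Spot positions were not used. UMI counts were summed per section and class of spot and scaled to CPM, and the log2 ratio of the median gene (genes with at least 200 UMIs in the retained spots of a section, or 50 in the adventitial spots of both sections together) was subtracted. Intervals are exact conditional 95% intervals for ratios and Clopper-Pearson intervals for shares; the interval of a difference between sections is approximate. With 1 section per genotype no test was made. A gene is counted as higher or lower at 1.5-fold from the median gene. The adventitial spots held 714227 UMIs in PD1 Het and 1462995 in PD1 KO. The members, the 33 gene lists (325 genes, of which Ccl19 and Ccl21a were not matched to a single symbol) and the rules were chosen with earlier results of these data known. Named genes are the markers, up to 4 members of each list with at least 30 UMIs in the retained spots of each section (the 2 most abundant and the 2 with the largest ratio), the 20 genes highest and the 10 lowest by the weaker section, and the 10 highest and 10 lowest between the sections; the last 2 groups skip unnamed gene models and genes of the sex chromosomes' marker set, of ribosomal proteins, of mitochondria and of red blood cells. Any other gene is named as a member of a count or list, with its values already known. Positions come from GENCODE vM21, which held 32158 of 32285 gene IDs. Doublets do not apply to spots. Python 3.11.15 with numpy 2.4.6, scipy 1.17.1, pandas 2.3.3 and matplotlib 3.10.9 was used, and edgeR 4.0.16 for TMM factors as an alternative. The scripts were tested on simulated data.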

Additional observations from a re-analysis of the deposited data

Results flagged for a closer look

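Macrophage markers lay on opposite sides of the median gene in the adventitial spots of the 2 sections. Their summed log2 ratio to other retained spots was 0.25 (0.03 to 0.46) in PD1 Het and -0.16 (-0.32 to -0.00) in PD1 KO, a difference of -0.41 (-0.67 to -0.15), where the interval covers counting error only. The difference between genotypes was not tested, since there is 1 section of each. The sum rested on 203 UMIs in PD1 Het and 345 in PD1 KO adventitial spots, and 5 of 5 tested members lay above the median gene in PD1 Het against 1 of 5 in PD1 KO. Scar spots held 514 and 908 CPM of these markers. Against matrix-rich other retained spots the ratios were 0.06 (-0.19 to 0.29) and -0.65 (-0.83 to -0.48).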

How the results depend on the processing

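No paired analysis was possible because each genotype has 1 section and the sections share fewer than 2 replicate numbers. The log2 ratio of the adventitial list outside the rule stayed above 0 under every alternative run, from 0.34 to 0.61 in PD1 Het and from 0.31 to 0.62 in PD1 KO, while counts of genes past 1.5-fold moved widely, by construction where spots, genes or the fold were changed. With 25 spots per section, 30 genes were lower in both sections, 356 higher and 225 lower in PD1 KO, and the list was at 0.53 in PD1 Het. With 100 spots, 22 genes were higher and the list was at 0.39 in PD1 KO. With no spot left out as scar the counts were 199 higher and 50 lower, and the list was at 0.61 and 0.62; with a scar class of 2 times that size left out they were 14 and 1, with 0.38 in PD1 KO. Ranks from thinned spots gave 19 and 2 genes, of which 18 of the 19 were among the 37, and 0.34 and 0.31. Ranking without Clec3b gave 0.39 in PD1 KO. CPM ratios not relative to the median gene gave 58 higher and 7 lower, 1162 higher and 127 lower in PD1 KO, and 0.61 and 0.57. A total without mitochondrial genes gave 254 lower in PD1 KO. Minimums of 500 and 200 UMIs gave 16 higher, and 74 and 57 in PD1 KO; no minimum gave 420 and 188, and 2356 and 2088. At 2-fold the 4 counts were 5, 5, 149 and 30. The comparison with matrix-rich spots, chosen after seeing the data, gave 15 higher genes, of which 10 were among the 37, and 0.34 and 0.35. The other alternatives, including TMM factors, moved no count by over 1.5 times.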
